A study of Rattus norvegicus with 2 samples.

Results

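The genes described here are 35 enzymes, transporters and regulators of glycolysis and glycogen use, chosen by name: Hk1, Hk2, Pfkm, Pfkl, Pfkp, Pfkfb1, Pfkfb3, Aldoa, Aldoc, Tpi1, Gapdh, Pgk1, Pgam1, Pgam2, Eno1, Eno2, Eno3, Pkm, Ldha, Ldhb, Pygm, Pygb, Pygl, Phka1, Phkg1, Gys1, Ugp2, Pgm1, Slc2a1, Slc2a4, Slc16a1, Slc16a3, Pdk4, Gbe1 and Ppp1r3c. All 35 had a mouse row among 25888 mouse gene names, and 34 had a rat row among 22966 rat gene names, since no rat row carried the name Pgk1. Aldoa had 2 rows in each species, which were summed. Droplet-based single-cell RNA-seq counted molecules by unique molecular identifiers (UMIs) at the 3′ end of transcripts in sorted live cells of skeletal muscle from across the body. There were 2 libraries, each from 1 animal. The SD rat library came from a Sprague-Dawley (SD) rat. The rat-mouse chimera library came from an animal made by injecting mouse induced pluripotent stem cells, edited at the Dmd mdx mutation and carrying the Pax7-nGFP reporter, into SD rat morulae. The iPSC line was 1 clone, and the host kept its own satellite cells. The labels gave no age or sex for either animal. With 1 library in each group no test between groups was possible, and every interval below is an exact 95% interval that covers counting error only.

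Glycolysis splits glucose to pyruvate, and skeletal muscle also feeds it from glycogen, which glycogen phosphorylase breaks down. Several of its steps are served by isoforms from separate genes, with a form enriched in muscle (Pgam2, Eno3, Pfkm, Pygm) and a form found widely (Pgam1, Eno1, Pfkl and Pfkp, Pygb and Pygl). Fast-twitch fibres rely on glycolysis and lactate production more than slow-twitch fibres, which rely on oxidation.

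After filters, 8816 SD rat barcodes and 11730 chimera barcodes were kept, with median depths of 6276 and 7848 UMIs, and 43 barcodes occurred in both libraries. Chimera barcodes were called rat where at most 20% of UMIs fell on mouse rows (8230 barcodes) and mouse where at least 80% did (1847 barcodes), and the 1653 between these limits were not used. Cells were clustered without the 35 genes and the other listed pathway genes, and classes were named from marker genes. The myofibre-like class held 1510 SD rat, 834 chimera rat and 29 chimera mouse barcodes, the satellite-like class 361, 432 and 46, and the endothelial (EC-like) class 1144, 721 and 1087. Myofibre-like barcodes held 21 of 21 myofibre markers above the level of other classes in the SD rat, but 19 of 23 in chimera mouse cells, whose median barcode had 84.0% mouse UMIs. Whole fibres are too large for droplets, so these barcodes hold parts or contents of fibres. They carried few mitochondrial UMIs (median 0.733% in the SD rat, against 7.11% in satellite-like cells). The SD rat library was counted on rat rows alone and the chimera on rat and mouse rows together.

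Levels are given as CPM, the UMIs of a gene summed over the barcodes of a class and scaled to the same total in every class. Because 3′ UMIs count molecules, these levels do not scale with transcript length. In SD rat myofibre-like cells, the 34 measured genes took 3.43% of all UMIs (interval 3.42 to 3.44), against 0.348% in satellite-like and 0.399% in EC-like cells. In the median SD rat myofibre-like barcode the share was 3.37%, with quartiles of 2.78% and 3.93%. Chimera rat cells had 3.29%, 0.304% and 0.347% in the same classes, and chimera mouse cells had 5.03%, 0.381% and 0.244%. The order of the classes was thus myofibre-like far above the others in each population.

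On the rat rows of the SD rat, the lower steps of glycolysis, which turn triose phosphates into pyruvate and lactate, were the most abundant. The upper step of Aldoa is uncertain here. It read 182 CPM in these cells but 18717 CPM (rank 10) in chimera mouse myofibre-like cells. In chimera rat myofibre-like barcodes 61.2% of Aldoa UMIs fell on mouse rows. Gapdh, which oxidises glyceraldehyde 3-phosphate, stood at 10162 CPM and ranked 10 among 13403 detected features of SD rat myofibre-like cells. Eno3, the muscle enolase, stood at 8930 CPM (rank 12) and Pgam2, the muscle phosphoglycerate mutase, at 6034 CPM (rank 16). Tpi1, triose phosphate isomerase, followed at 2660 CPM (rank 36), and Ldha, a lactate dehydrogenase subunit, at 2391 CPM (rank 46). Pygm, muscle glycogen phosphorylase, reached 1401 CPM (rank 98), above Pkm (pyruvate kinase) at 642 CPM and Pfkm (muscle phosphofructokinase) at 453 CPM. These 8 genes thus ranged from 453 to 10162 CPM in fibres, and the entry steps stood far below them. Hk2, the hexokinase of insulin-responsive tissue, had 4.73 CPM and Hk1, the widespread hexokinase, 3.36 CPM, with overlapping counting intervals. Slc2a4 (GLUT4), the insulin-responsive glucose transporter, had 17.6 CPM and Slc2a1 (GLUT1) 2.75 CPM. Among the glycogen genes, Pgm1 (phosphoglucomutase) had 532 CPM, Ugp2 (which makes UDP-glucose) 308 CPM, Phka1 and Phkg1 (phosphorylase kinase subunits) 152 and 42.0 CPM, Gys1 (muscle glycogen synthase) 39.2 CPM, Ppp1r3c (a glycogen-targeting subunit of protein phosphatase) 37.9 CPM and Gbe1 (branching enzyme) 30.7 CPM. Pygl, the liver phosphorylase, had no UMI in these 1510 barcodes, which allows up to 0.458 CPM.

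**Figure D1:**
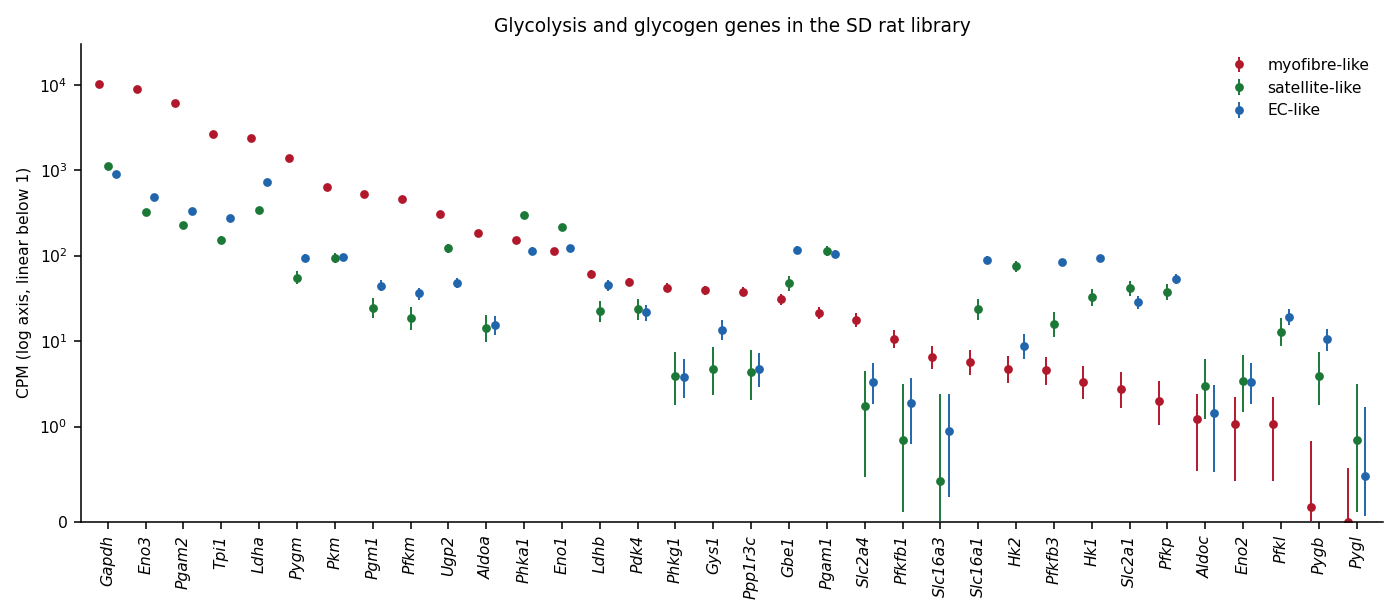
Levels of the 34 measured genes in SD rat myofibre-like (red), satellite-like (green) and EC-like (blue) cells, in CPM on an axis that is logarithmic above 1 and linear below, with exact 95% Poisson intervals for counting error. Gapdh, Eno3 and Pgam2 stood at 6034 to 10162 CPM in myofibre-like cells, while Hk1, Pfkp, Pfkl and Slc2a1 stood below their satellite-like and EC-like levels.

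Promoters are shown for the isoform pairs on which the results turn, phosphoglycerate mutase and enolase, and for Pygm. They are the 250 bases before the annotated start in the RefSeq rat genome GRCr8, which is not the build of the files, at chr14:84897875-84898124 on the minus strand (Pgam2), chr1:250672902-250673151 (Pgam1), chr10:55868936-55869185 (Eno3), chr5:166002617-166002866 (Eno1, the first of 2 listed starts) and chr1:213119555-213119804 (Pygm), the last 4 on the plus strand. Capitals mark CANNTG, the E-box read by myogenic and many other factors, and TATAAA, the TATA box.
Pgam2: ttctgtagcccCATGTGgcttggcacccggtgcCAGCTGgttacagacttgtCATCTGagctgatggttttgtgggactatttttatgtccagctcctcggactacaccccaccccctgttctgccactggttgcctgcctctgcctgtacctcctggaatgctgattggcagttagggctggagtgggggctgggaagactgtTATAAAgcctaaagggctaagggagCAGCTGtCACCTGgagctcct
Pgam1: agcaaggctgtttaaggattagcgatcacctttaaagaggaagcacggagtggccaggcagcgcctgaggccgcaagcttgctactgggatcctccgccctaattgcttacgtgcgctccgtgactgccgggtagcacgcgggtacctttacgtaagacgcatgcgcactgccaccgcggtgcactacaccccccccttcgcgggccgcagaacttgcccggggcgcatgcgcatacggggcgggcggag
Eno3: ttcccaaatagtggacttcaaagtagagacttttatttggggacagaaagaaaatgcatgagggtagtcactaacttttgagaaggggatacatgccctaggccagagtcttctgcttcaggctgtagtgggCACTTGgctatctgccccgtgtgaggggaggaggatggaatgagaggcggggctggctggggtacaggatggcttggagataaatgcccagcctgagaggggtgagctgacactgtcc
Eno1: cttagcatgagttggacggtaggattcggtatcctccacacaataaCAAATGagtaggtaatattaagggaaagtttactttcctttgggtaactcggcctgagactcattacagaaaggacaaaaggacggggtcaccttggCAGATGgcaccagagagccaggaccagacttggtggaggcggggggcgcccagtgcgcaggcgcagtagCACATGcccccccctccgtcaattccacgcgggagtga
Pygm: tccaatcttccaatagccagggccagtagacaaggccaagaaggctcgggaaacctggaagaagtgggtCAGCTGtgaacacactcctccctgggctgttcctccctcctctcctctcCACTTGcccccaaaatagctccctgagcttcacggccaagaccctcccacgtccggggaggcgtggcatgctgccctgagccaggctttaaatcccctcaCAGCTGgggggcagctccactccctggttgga
The Pgam2 window held 5 CANNTG matches, 2 of them CAGCTG, and a TATAAA 46 bases before the start, while Pgam1 held no CANNTG and 3 GGGCGG matches, counted on both strands with overlaps. Pygm held 3 CANNTG matches, 2 of them CAGCTG, Eno3 held 1 and Eno1 held 3. Promoters were found for 33 of the 35 genes, 37 promoters in total. A gene was counted where any of its promoters held the motif, while the background counts single promoters, so the shares differ in unit. CANNTG occurred in 21 genes (63.6%), against 65.5% of all 33469 promoters of the same length. CAGCTG occurred in 5 (15.2%: Pgam2, Pygm, Pygl, Gys1 and Ppp1r3c) against 12% of all promoters, and TATAAA in 3 (9.09%) against 12.9%. GGGCGG, the GC box of many widely used promoters, occurred in 21 (63.6%) against 30.5%. For MEF2 only a single exact sequence was searched, without other forms of its motif, and it occurred in 0 against 0.114%. With so rare a sequence, 0 in 33 genes is uninformative, and no absence of MEF2 sites is read from it. The shares of the E-box and TATA box letters were thus near those of all promoters and that of GGGCGG was higher, and matches are letters in a window, not shown binding sites.

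Myofibre-like cells differed from satellite-like cells in both directions. The satellite-like class pooled Pax7 cells with cells of later myogenesis. It included clusters led by Myog, of 61 SD rat and 89 chimera rat barcodes. In the SD rat the class held 515 CPM of Myog and 110 CPM of Pax7. A gene was called where its levels differed at least 2-fold after 5 CPM was added to both sides, with at least 20 UMIs over both. In the SD rat, 30 of the 34 genes reached that number of UMIs, 18 were higher and 8 lower in myofibre-like cells, and the median log2 ratio was 1.35. Over all 9401 features, 7.82% were higher and 53.7% lower, with a median of -1.11, and a set of 8 sarcomere genes took 35.8% of the UMIs of these barcodes. With scaling factors from edgeR or DESeq2, which move that median up by 1.11 or 1.10, the split was 19 higher and 4 lower. Aldoc, Eno2, Pygb and Pygl had too few UMIs. Against EC-like cells 32 genes were compared, 17 were higher and 9 lower, with a median of 1.10 against -1.10 over all features (9.58% higher and 53.1% lower), and both other scalings gave 21 higher and 5 lower.

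The higher genes included most muscle forms, the shared lower steps and several glycogen genes. Eno3 was 27.2-fold, Pgam2 26.3-fold, Pygm 25.4-fold and Pfkm 24.5-fold higher in SD rat myofibre-like than in satellite-like cells. Pgm1 was 21.7-fold, Tpi1 17.3-fold and Gapdh 9.16-fold higher. The remaining 11 were Aldoa (aldolase A), Ldha, Pkm, Phkg1, Ppp1r3c, Gys1, Slc2a4, Pfkfb1, Ugp2, Ldhb and Slc16a3, with log2 ratios from 3.28 (Aldoa) down to 1.09 (Slc16a3, the lactate exporter MCT4). The 8 lower genes were the hexokinases Hk2 (4.73 against 75.5 CPM) and Hk1 (3.36 against 32.8 CPM), the non-muscle phosphofructokinases Pfkp and Pfkl, Slc2a1, Pgam1 (21.4 against 113 CPM), the lactate and pyruvate carrier Slc16a1 and Pfkfb3, which makes the activator of phosphofructokinase. These folds compare shares of UMIs and not amounts per cell, because fewer molecules of a gene and more of others cannot be told apart. The 8 sarcomere genes took 35.8% of UMIs in SD rat myofibre-like and 1.60% in satellite-like cells. Satellite-like levels of Eno3, Pgam2, Pygm, Pfkm and Pgm1 lie near what free fibre RNA would give, as set out below. Their folds are therefore not read as the size of a difference in expression, and the part of free RNA was not tested.

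The rat cells of the chimera gave the same kind of split, from a separate library. Of 28 genes compared with satellite-like cells, 16 were higher and 8 lower (median 1.17 against -1.20, with 6.4% of all features higher and 58.4% lower). With the other scalings 17 were higher and 4 lower. Against EC-like cells, 15 of 31 were higher and 9 lower (median 0.86 against -1.24, with 7.78% higher and 57.9% lower), and edgeR's factors gave 20 and 6. Pgam2 was 70.3-fold and Eno3 67.8-fold higher in myofibre-like than in satellite-like cells there, with lower satellite-like levels than in the SD rat (93.7 and 104 CPM, against 230 and 328 CPM).

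In the 29 chimera mouse myofibre-like barcodes, 17 genes could be compared with satellite-like cells, of which 11 were higher and 6 lower (8.7% and 71% of all features), with a median log2 ratio of 1.56 against -2.28. Against EC-like cells, 16 of 29 were higher and 10 lower (7% and 64% of all features). The higher genes included Pgam2 (422 UMIs, 4589 CPM), Eno3 (518 UMIs, 5634 CPM), Pygm (91 UMIs, 990 CPM) and Pgk1, phosphoglycerate kinase, at 772 CPM against 270 CPM in satellite-like and 92.2 CPM in EC-like cells. Many of the lower calls rested on an absence of UMIs: the class held so few UMIs that 3 counts equal 32.6 CPM, and Hk1, Pfkl, Pfkp, Pgam1, Eno1, Ldhb, Pygb, Slc2a1, Slc16a1 and Pdk4 had none.

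The choice of isoform was read as the muscle form's share of its group's CPM in 10 groups, counting those with at least 20 UMIs. In SD rat myofibre-like cells the muscle form was the majority in 10 of 10 groups, in satellite-like cells in 6 of 10 and in EC-like cells in 5 of 10. In chimera rat cells it was 8 of 9, 5 of 10 and 4 of 10, and in chimera mouse cells 5 of 5, 3 of 5 and 2 of 10. The 8 groups of chimera rat myofibre-like cells include Pfkfb1, whose share is not read as a majority, as set out below. Pgam2 made up 99.6% of phosphoglycerate mutase UMIs in SD rat, 99.7% in chimera rat and 100% in chimera mouse myofibre-like cells. In satellite-like cells its share was 67.0% (interval 63.6 to 70.2) in the SD rat, 50.6% (46.7 to 54.6) in chimera rat cells and 6.45% (2 of 31 UMIs) in chimera mouse cells. Eno3 went from 98.7%, 98.2% and 100% of enolase in myofibre-like cells to 60.0%, 26.3% and 12.5% (2 of 16 UMIs) in satellite-like cells. Pfkm went from 99.3%, 99.3% and 100% (14 of 14 UMIs) to 26.7%, 20.8% and 11.1%. Mutase, enolase and phosphofructokinase thus had nearly pure muscle forms in all myofibre-like classes. The satellite-like levels of Pgam2 and Eno3 in rat cells, and of Pfkm in the SD rat, lie near the level of free fibre RNA. Their shares there are not read as a mixture within these cells.

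Pygm held 9179 of 9180 phosphorylase UMIs in SD rat myofibre-like cells, 7466 of 7468 in chimera rat cells and 91 of 91 in chimera mouse cells. In satellite-like cells its share was 92.1%, 79.1% and 94.7% (18 of 19 UMIs), where the rat values again lie near the level of free fibre RNA. Aldoa held 99.3% of Aldoa plus Aldoc UMIs in SD rat myofibre-like cells. Pfkfb1, the muscle and liver form of the enzyme that sets fructose 2,6-bisphosphate, held 69.7% of its pair with Pfkfb3 there. In chimera rat myofibre-like cells the Pfkfb1 share was 60.5%. Of the Pfkfb3 UMIs of those barcodes, 14 of 31 fell on the mouse row and were not counted, against 1 of 27 for Pfkfb1. The Pfkfb1 share of chimera rat cells is therefore not read as a majority. Lactate dehydrogenase changed little with class: Ldha was 97.5% of Ldha plus Ldhb UMIs in SD rat myofibre-like, 93.8% in satellite-like and 94.1% in EC-like cells. Hexokinase gave another pattern. Hk2 held 58.5% of hexokinase UMIs in SD rat myofibre-like cells (31 of 53 UMIs, interval 44.1 to 71.9), 69.7% in satellite-like cells, 75.4% in fibro-adipogenic (FAP-like) cells and 8.67% in EC-like cells. Slc2a4 held 86.5% of the glucose transporter pair in SD rat and 88.9% in chimera rat myofibre-like cells. Slc16a3 held 53.8% of its pair with Slc16a1 in SD rat myofibre-like cells, so that lactate carriers had no clear majority form there. In chimera rat myofibre-like cells its share was 41.7%. However, 17 of 32 Slc16a3 UMIs of those barcodes fell on the mouse row and were not counted, against 1 of 22 for Slc16a1. No majority form is therefore read for chimera rat cells. The splice forms of Pkm share a gene and could not be separated, and Gapdh, Aldoa, Pgam1, Eno1, Ldha, Pkm and Tpi1 have near-identical copies elsewhere, so their counts are uncertain to that extent.

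**Figure D2:**
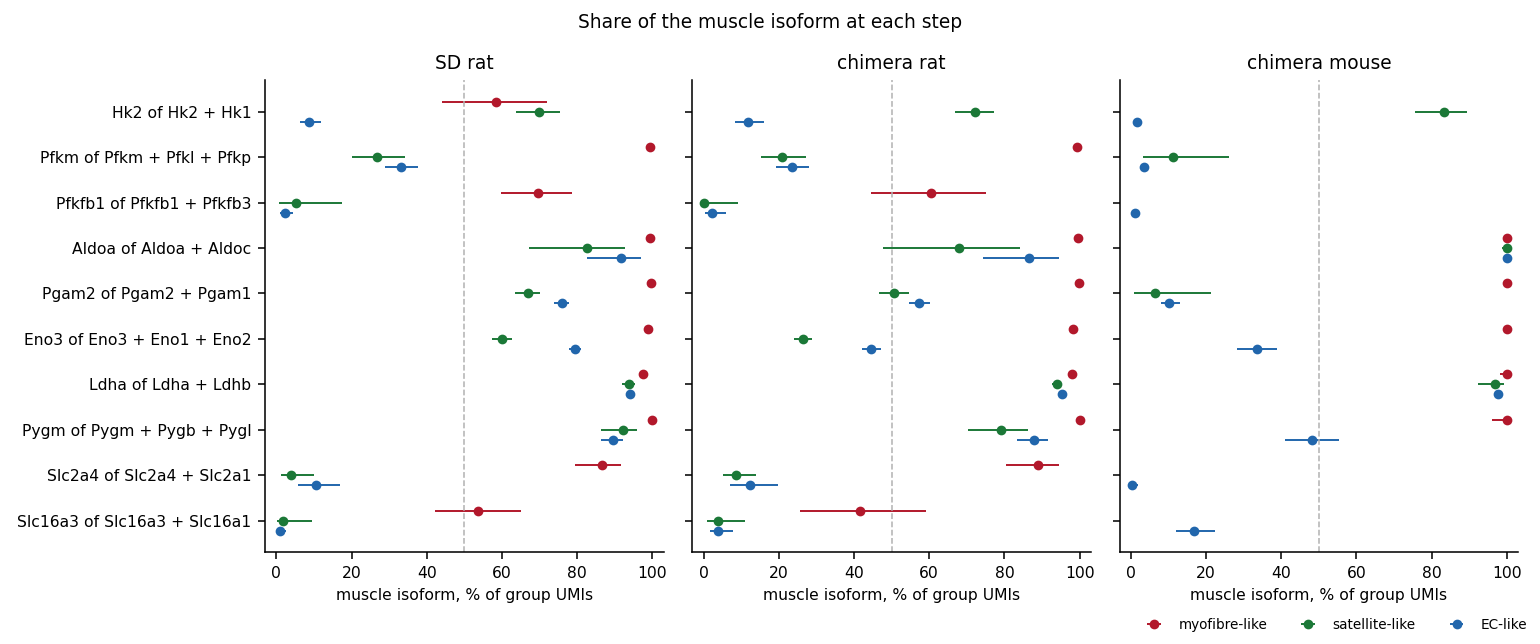
Share of each isoform group held by its muscle form, in percent of the group's UMIs, in myofibre-like (red), satellite-like (green) and EC-like (blue) cells of the SD rat, chimera rat and chimera mouse, for groups with at least 20 UMIs. Lines are exact 95% binomial intervals and the dashed line marks 50%. Pgam2, Eno3 and Pygm stood at 98.2% or above in all myofibre-like classes, and Pgam2 stood at 67.0%, 50.6% and 6.45% in satellite-like cells.

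Fibre transcripts were also found in barcodes that are not fibres, which bears on the shares above. A set of 8 sarcomere genes stood in SD rat EC-like cells at 6.37% of its myofibre-like level, in satellite-like cells at 4.47%, in T or NK-like cells at 6.13% and in B-like cells at 5.93%. The corresponding values were 2.65%, 1.66%, 1.65% and 2.18% in chimera rat cells, and 0.22% in EC-like and satellite-like chimera mouse cells. If free fibre RNA carried every gene in one ratio, the level of Pgam2 in SD rat EC-like cells would be 384 CPM, and 331 CPM was measured. For Eno3 it would be 569 CPM against 488 CPM, and for Pygm 89.2 CPM against 94.0 CPM. Over 10 SD rat classes the ratio of measured to such a level was 0.806 to 1.30 for Pgam2 and 0.756 to 1.10 for Eno3, and over 9 classes it was 0.770 to 1.10 for Pygm. In chimera rat cells the ranges were 0.859 to 1.08, 0.847 to 1.35 and 0.968 to 1.64. Outside fibres of the rat populations these 3 muscle forms were thus near the level set by the sarcomere genes, and their shares there are not read as expression. The measure cannot tell free RNA from sarcomere genes made by the cells themselves. This limit applies to the Myog-led clusters of the satellite-like class.

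The same measure gave other values for the widely used genes. Ldha stood 3.17 to 11.9 times and Pkm 2.34 to 6.11 times above that level in SD rat classes, and Gapdh 1.32 to 2.44 times. Subtracting the fibre RNA, an alternative added after the data were seen, left 3 of 10 groups with a muscle majority in SD rat satellite-like cells and 2 of 10 in EC-like cells. Ldha kept 92.2% and 93.3% there and Hk2 69.8% and 8.41%, while Pgam2 and Eno3 went to 0%. That last result follows from measured levels below the free RNA level, because subtracted counts were cut at 0. In SD rat barcodes thinned to 1000 UMIs, Pgam2 was seen in 97.7% of myofibre-like, 19.8% of satellite-like, 27.7% of EC-like and 20.2% of T or NK-like barcodes (unthinned 98.4%, 56.8%, 56.2% and 55.3%). Thinned FAP-like barcodes stood lower for Pgam2, at 11.2% (interval 10.1 to 12.3), so its share differed between the classes outside fibres. How much of the satellite-like share was background was not tested. Pgam1 went the other way, with a UMI in 2.75% of thinned myofibre-like and 11.5% of thinned satellite-like barcodes.

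In chimera mouse cells the background of mouse fibre genes was low, and part of the pattern could be seen more directly. Pgam2 in mouse EC-like cells had 60 mouse UMIs (8.15 CPM), 0.794 times the free RNA level, and Eno3 had 104 (14.1 CPM), 1.12 times. Pygm had 96 UMIs in EC-like cells, 5.89 times that level, and 18 UMIs in satellite-like cells, 18.7 times. Rat transcripts stood in for the background there: of all Pgam2 UMIs in chimera mouse barcodes, 1134 of 1670 (67.9%) fell on the rat row, against 61.1% for Eno3, 57.3% for Pygm, 14.1% for Gapdh, 8.62% for Ldha and 0.37% for Hk2.

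**Figure D3:**
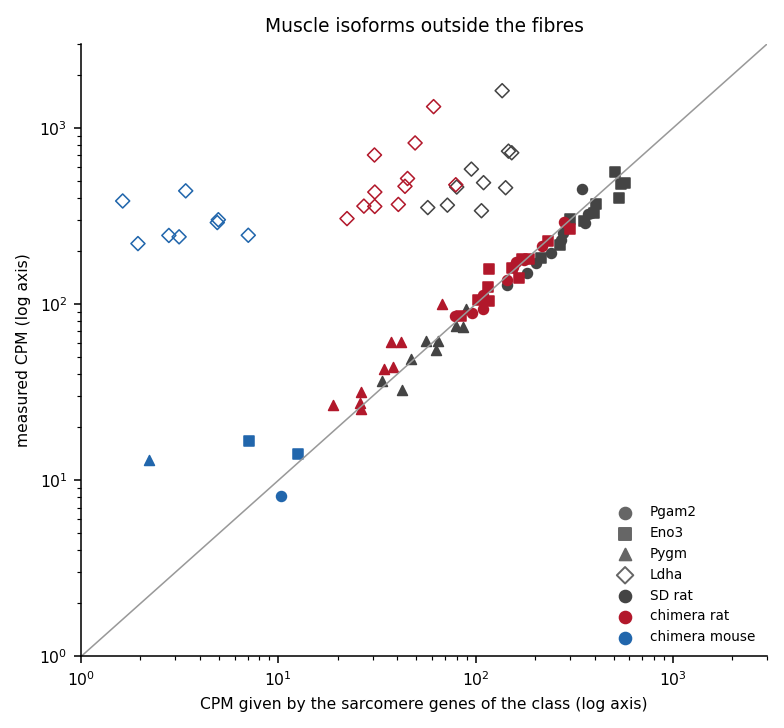
Measured level of Pgam2, Eno3, Pygm and Ldha in each class outside fibres (vertical) against the level that free fibre RNA would give from the class's sarcomere genes (horizontal), in CPM on log axes, with 1 point per class, for SD rat (black), chimera rat (red) and chimera mouse (blue) cells. Filled points of Pgam2, Eno3 and Pygm lay along the line of equality in rat cells, and open diamonds of Ldha lay above it, by 3.17 to 11.9 times in the SD rat.

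Away from fibres, members peaked in distinct classes. The highest class was the myofibre-like one for 17 of 34 genes in the SD rat, 15 of 34 in chimera rat cells and 14 of 35 in chimera mouse cells. Slc2a1, the basal glucose transporter, was highest in myeloid-like cells, at 219 CPM (207 to 232) in the SD rat and 189 CPM (181 to 198) in chimera rat cells. Slc16a3 was highest in the same class, at 47.0, 33.5 and 145 CPM in SD rat, chimera rat and chimera mouse cells. Aldoc, the brain aldolase, was highest in Schwann or glial-like cells at 78.1 CPM (59.7 to 100) and 81.2 CPM (60.5 to 107), against 1.22 CPM in SD rat myofibre-like cells. Hk2 was highest in FAP-like cells, at 86.6 and 76.7 CPM in the rat populations and 639 CPM in chimera mouse cells. Hk1 and Pfkfb3 were highest in SD rat EC-like cells, at 92.6 and 83.1 CPM, and in mouse EC-like cells, at 87.1 and 150 CPM. In chimera rat cells Hk1 was again highest in EC-like cells, at 66.7 CPM, but Pfkfb3 was highest in B-like cells, at 60.1 CPM against 36.5 CPM in EC-like cells. Slc16a1 was highest in EC-like cells of the SD rat (89.5 CPM), in myeloid-like cells of the chimera rat population (74.4 CPM) and in tenocyte or fibroblast-like cells of the chimera mouse population, with counting intervals that overlapped those of FAP-like cells in both rat populations.

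Other members marked smaller classes. Pygl, the liver phosphorylase, reached 84.0 CPM (59.7 to 115) in SD rat mast-like cells and 27.3 CPM (11.8 to 53.8) in those of the chimera rat population, on 39 and 8 UMIs. Pygb, the brain phosphorylase, was highest in lymphatic endothelial (LyEC-like) cells at 19.5 and 25.5 CPM. Gbe1 was highest in B-like cells at 158 and 112 CPM, with EC-like cells next at 117 and 85.9 CPM, and the B-like and EC-like counting intervals overlapped in the SD rat. Slc2a4 was highest not in fibres but in pericyte or mural-like cells of the chimera rat population, at 85.9 CPM (69.2 to 105, 91 UMIs) against 16.9 CPM in myofibre-like cells, and 28.7% of these 258 barcodes held a UMI. In the SD rat a cluster of 386 barcodes led by Rgs5, Vtn and Ndufa4l2 scored highest for endothelial markers and was left unnamed. No Slc2a4 level of that cluster is given here. Phka1 was higher in satellite-like than in myofibre-like cells of both rat populations, at 298 against 152 CPM and at 309 against 153 CPM, but by less than 2-fold in each after 5 CPM was added.

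Fibre barcodes were further split by their troponins, which the split uses and the members do not enter. Barcodes with at least 10 troponin UMIs were called slow where at least 50% were of the slow forms and fast where at most 10% were. The SD rat had 41 slow, 1457 fast and 12 intermediate barcodes, and chimera rat cells had 15, 818 and 1. In the SD rat 27 genes could be compared, with 2 higher and 15 lower in slow barcodes and a median log2 ratio of -1.22, against 11.3% higher, 14.8% lower and 0.06 over all features. Chimera rat cells had 5 higher and 11 lower of 23, with a median of -0.84, against 19.2%, 29.9% and 0.01. Of the lower SD rat calls, Pfkfb1, Slc16a1 and Slc16a3 had no slow UMI and Phkg1 and Ppp1r3c had 2 each. Counting intervals of these genes included no difference, and the SD rat median was the value of Slc16a3. Among the lower chimera rat calls Pfkfb1 had no slow UMI, with an interval of the same kind, and Aldoa had 3. Slow barcodes were shallower (median 2703 against 3679 UMIs, and 2856 against 5444.5) and richer in mitochondrial UMIs (1.48% against 0.709%, and 6.23% against 0.302%), and the part of this in the results was not tested. The cells of a class come from 1 animal, and these are counts from barcodes rather than animals.

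Lactate dehydrogenase changed its form between the fibre kinds. Ldhb, the heart-type subunit, stood at 877 CPM in slow and 37.9 CPM in fast barcodes of the SD rat, and at 1122 and 24.0 CPM in chimera rat cells. Ldha ran the other way, at 358 against 2452 CPM in the SD rat. Its share was therefore 29.0% in slow barcodes (58 of 200 UMIs, interval 22.8 to 35.8) and 98.5% in fast ones, and in chimera rat cells 22.8% (23 of 101 UMIs) and 98.7%. Slc2a4 was the other member higher in both populations, at 80.3 against 14.8 CPM (13 slow UMIs) and at 86.3 against 15.8 CPM (6 slow UMIs). Pgam2 fell from 6184 CPM in fast to 1118 CPM in slow SD rat barcodes, yet it was still 96.3% of its group in the slow ones. Eno3 (log2 ratio -2.22), Pygm (-2.11) and Pkm (-2.76) were lower as well, and Eno3 and Pygm kept 94.9% and 100% of their groups. Pgam2, Eno3 and Pygm thus stood lower in slow SD rat barcodes but kept the majority of their groups, while Ldha lost its majority. The fast shares of Pgam2 and Eno3 were somewhat higher, at 99.7% and 98.7%. Slc2a4, the muscle form of its pair, stood higher in slow barcodes. Pdk4, which inhibits pyruvate dehydrogenase, was higher in slow barcodes of chimera rat cells (115 against 9.85 CPM, on 8 slow UMIs) but not of the SD rat (43.2 against 48.6 CPM, on 7). Pgam1 and Slc16a1, called higher in chimera rat slow barcodes, each rested on 4 UMIs there.

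**Figure D4:**
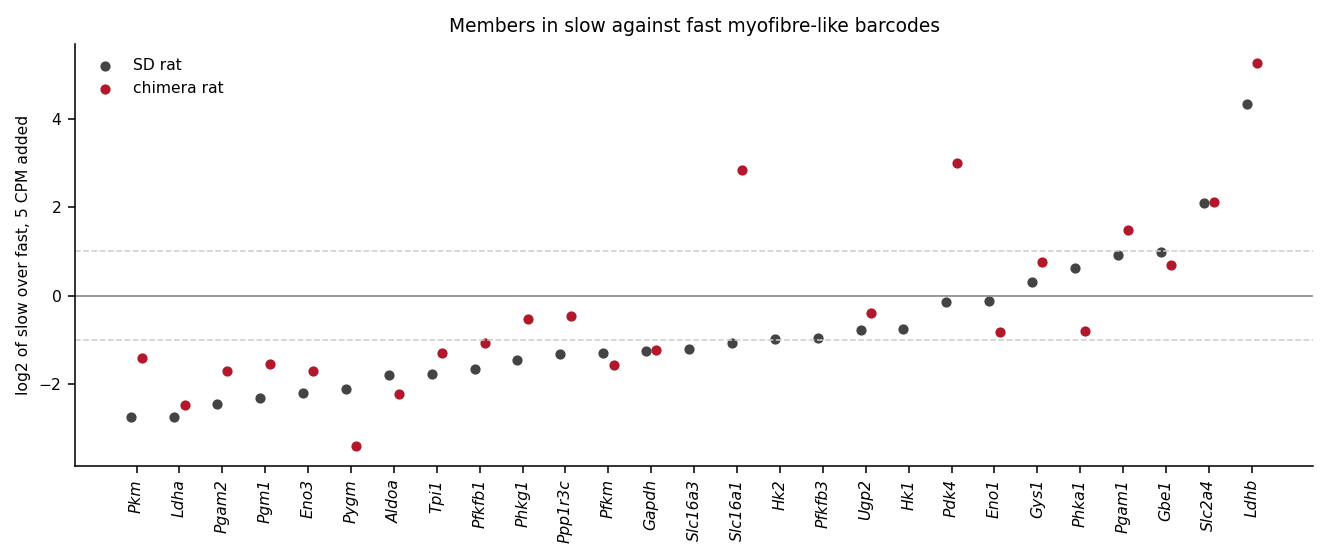
Log2 ratio of slow over fast myofibre-like barcodes, with 5 CPM added, for each compared member in the SD rat (black) and chimera rat cells (red). The dashed lines mark 2-fold. Ldhb (4.36 and 5.28) and Slc2a4 (2.11 and 2.13) lay above the upper line in both, and Ldha, Pgam2, Eno3 and Pygm lay below the lower line in both.

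The rat cells of the chimera were then set beside those of the SD rat, which asks whether a host that carries mouse cells differs in these genes. In myofibre-like cells none of 29 genes was higher and 1 was lower, against 0.271% and 1.6% of all features, and the median log2 ratio was -0.25 against -0.13. The gene was Pdk4, at 11.4 CPM (54 UMIs, interval 8.56 to 14.9) in the chimera and 49.0 CPM (321 UMIs, 43.8 to 54.7) in the SD rat, 4.30-fold lower. In satellite-like cells none was higher and 3 of 29 were lower, against 0.636% and 1.42%. They were Pfkl (2.32 against 12.9 CPM, on 8 and 30 UMIs), Pgam2 (93.7 against 230 CPM) and Eno3 (104 against 328 CPM). In EC-like cells none was higher and 3 of 30 were lower, against 1.7% and 1.72%: Pfkfb3 (36.5 against 83.1 CPM), Eno3 (181 against 488 CPM) and Gys1 (3.68 against 13.5 CPM).

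Several measured facts stood beside these differences. Pgam2 and Eno3 differed together with the sarcomere set, which stood in satellite-like cells at 4.47% of its fibre level in the SD rat and 1.66% in chimera rat cells. Pgam2 lay below the free RNA level in both satellite-like classes (0.852 times in the SD rat and 0.859 times in chimera rat cells), and so did Eno3 (0.821 and 0.890 times). Some UMIs of chimera rat barcodes fell on the mouse row, where they did not count. In the class of each call these were 4 of 12 (33.3%) for Pfkl, 24.9% for Pfkfb3, 7 of 21 (33.3%) for Gys1 and 9 of 63 (14.3%) for Pdk4. Over all chimera rat barcodes the shares were 10.5%, 21.0%, 12.2% and 8.92%, against 1.86% for Pgam2 and 0.08% for Eno1. The SD rat library had no mouse rows. With 1 animal a side, a difference between animals, between libraries and between the chimera and the SD rat cannot be told apart.

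**Figure D5:**
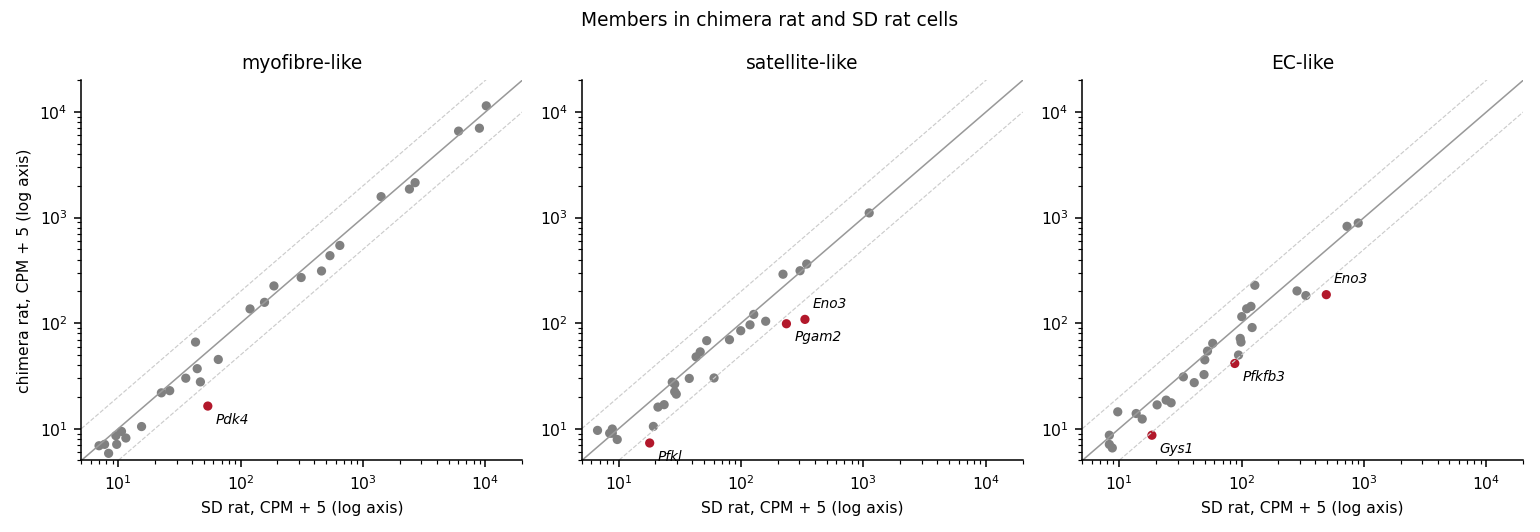
Levels of the compared members in chimera rat (vertical) against SD rat cells (horizontal), in CPM plus 5 on log axes, for myofibre-like, satellite-like and EC-like cells, with the line of equality and dashed lines at 2-fold. Called genes are red and named. Pdk4 was the called gene of the myofibre-like class, at 11.4 against 49.0 CPM, and the other compared members there lay within 2-fold.

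Mouse and rat cells of the chimera shared 1 body and 1 library but were counted on different rows, so these values compare genes of 2 species as well as cells. In myofibre-like cells 3 of 24 genes were higher in mouse than in rat cells (Pfkfb3, Aldoa and Phkg1) and 6 lower (Pgam1, Eno1, Ldhb, Phka1, Slc2a4 and Pdk4), against 12% and 39.1% of all features, and edgeR's and DESeq2's factors gave 3 and 15. Of the lower genes, Eno1 had no UMI on the mouse row, which is at least 4.03-fold below the 131 CPM of rat cells, counting 3 UMIs as the limit. Pgam1, Slc2a4 and Pdk4 had no mouse UMI either, but their rat levels lay under that limit, so no fold is given. All 5 Eno1 UMIs of these mouse barcodes fell on the rat row, as did 17.4% over all chimera mouse barcodes. The Eno1 bound thus holds for the mouse row only, and a difference in level was not separated from row assignment. In satellite-like cells, 4 of 23 were higher (Hk2, Aldoa, Pkm and Pdk4) and 6 lower (Pgam2, Eno3, Eno1, Phka1, Ugp2 and Pgm1), against 13.2% and 17.9%. In EC-like cells, 3 of 29 were higher (Pfkfb3, Aldoa and Phkg1) and 12 lower, against 10.7% and 13.3%. The 12 were Hk2, Pfkm, Pgam2, Eno1, Eno3, Ldha, Ldhb, Pygm, Phka1, Pgm1, Pdk4 and Gbe1. The count was 7 with fibre RNA subtracted and 5 with the other species' UMIs added, and the sarcomere set stood at 2.65% of its fibre level in rat and 0.22% in mouse EC-like cells.

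Aldoa had the largest difference of any member in each of these 3 classes, and in rat barcodes it also fell on the other species' rows more than any other member. It stood at 18717 CPM in mouse and 220 CPM in rat myofibre-like cells, at 588 and 5.51 CPM in satellite-like cells and at 365 and 11.8 CPM in EC-like cells. In chimera rat barcodes 3998 of 5453 Aldoa UMIs (73.3%) fell on mouse rows, and in mouse barcodes 0.59% fell on rat rows. Phkg1 (55.0%), Slc16a3 (45.1%) and Pfkfb3 (21.0%) had the next largest shares on mouse rows in rat barcodes. The rat level of Aldoa in the SD rat, 182 CPM in myofibre-like cells, was counted on rat rows only and stood near the 220 CPM of the chimera. Levels of Aldoa, Phkg1, Slc16a3 and Pfkfb3 therefore cannot be compared between the species here. Hk2 had 0.37% of its UMIs in mouse barcodes on the rat row and 7.85% of those in rat barcodes on the mouse row (6.30% in satellite-like cells), and it stood at 227 CPM (185 to 276) in mouse and 64.7 CPM (56.5 to 73.8) in rat satellite-like cells. Pdk4 in satellite-like cells was 83.9 CPM (59.1 to 116) in mouse and 17.4 CPM (13.3 to 22.4) in rat cells, with 8.92% of its UMIs in rat barcodes on the mouse row (7.69% in satellite-like cells).

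A list of 58 other genes of glycolysis, glycogen, the fates of pyruvate and their transporters was followed for context, of which 54 had a rat row. Of the 35 that could be compared between SD rat myofibre-like and satellite-like cells, 13 were higher and 6 lower, with a median log2 ratio of 0.67. Over all 9401 features, 7.82% were higher and 53.7% lower, with a median of -1.11. With edgeR's and DESeq2's scaling, 24 genes of the list were higher and 1 lower. Those factors also raise the median over all features, and no share over all features was taken with them. Among the listed genes with the largest folds upward were Gpd1, cytosolic glycerol 3-phosphate dehydrogenase (271 against 7.76 CPM), Ppp1r3a, the muscle glycogen-targeting subunit (98.6 against 3.88 CPM), Fbp2, muscle fructose bisphosphatase (75.9 against 2.59 CPM), and Bpgm (127 against 15.1 CPM). The largest downward was Adpgk, an ADP-dependent glucokinase (1.98 against 45.7 CPM), followed by Pdp1 (13.9 against 84.1 CPM) and Pgm2 (2.14 against 20.3 CPM), then Pfkfb2 and Gpd2 with log2 ratios of -1.30 and -1.14.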

How the data were processed

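Per the labels and the study's methods, muscle collected over the whole body of 1 chimera and 1 control SD rat was digested with collagenase, strained, sorted for live cells and loaded for 10x 3′ sequencing. The submitters' processing notes name Cell Ranger 7.1.0 with the builds mRatBN7.2 and GRCm39. The authors deposited filtered matrices of UMI counts, not normalized, with 118872850 UMIs in 13299 barcodes (chimera, rat and mouse rows) and 70957559 in 10117 (SD rat, rat rows). Barcodes with at least 500 UMIs, at least 200 genes and at most 20% mitochondrial UMIs were kept, and doublets (444 and 164) were removed with the Scrublet of scanpy 1.11.5 within each library. Each population was clustered on 2000 variable genes and 30 components (15 neighbours, Leiden 0.10.2, resolution 1) without the pathway genes, and classes were named from fixed markers (at least 3 needed).

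Counts of the cells' own species were summed by class and divided by their total (Python 3.11.15, numpy 2.4.6, scipy 1.17.1). Calls needed a 2-fold difference after 5 CPM was added and 20 UMIs, and the calling step was tested on simulated data. Folds printed are ratios of CPM without the 5 CPM, and log2 ratios include it. Intervals are exact Poisson or Clopper-Pearson at 95% and, like the limit of 3 counts for a count of 0, cover counting error only. Scaling factors of edgeR 4.0.16 and DESeq2 1.42.0 (R 4.3.3) were alternatives, with no model fitted. No test or p-value was possible with 1 library in a group. Every member was named or counted, with full values for isoform groups and for genes called between chimera rat and SD rat, and up to 5 other pathway genes were named in each direction, of which 1 is not reported here. The members and lists were chosen with earlier results of these data known.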

Additional observations from a re-analysis of the deposited data

How the results depend on the processing

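No paired analysis was possible because each group had 1 library and the labels give no replicate numbers. Across the settings tried, 618 of the main counts recomputed stayed within 1.5 times the reported value and 53 moved further. Where no reason is given, the cause was not tested. Counts of myofibre-like against other cells depended on the scaling. With the factors of edgeR or DESeq2, the members lower in myofibre-like than in satellite-like cells went from 8 to 4 in the SD rat and from 8 to 4 in chimera rat cells, those lower than in SD rat EC-like cells from 9 to 5, the other pathway genes from 13 to 24 higher and from 6 to 1 lower, and the members lower in chimera mouse than in chimera rat myofibre-like cells from 6 to 15. With DESeq2 those lower than in chimera rat EC-like cells went from 9 to 4. Adding 20 CPM instead of 5 gave 5 members and 2 other pathway genes lower in SD rat myofibre-like than in satellite-like cells, 1 member lower in chimera rat than in SD rat EC-like cells, and 3 (myofibre-like) and 7 (EC-like) lower in mouse than in rat chimera cells. Adding 1 CPM gave 2 members lower in chimera rat than in SD rat myofibre-like cells, 1 higher and 5 lower in satellite-like cells, and 4 higher in slow SD rat barcodes.

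A minimum of 100 UMIs left fewer genes to compare, with 4 members and 2 other pathway genes lower in SD rat myofibre-like than in satellite-like cells, 1 lower for chimera mouse cells, 3 lower in mouse than in rat myofibre-like cells and 1 higher in slow chimera rat barcodes. With no minimum, 18 members were higher and 11 lower in chimera mouse myofibre-like than in satellite-like cells, 5 were higher in mouse than in rat myofibre-like cells and 8 higher in slow chimera rat barcodes. Calling species by the majority of UMIs gave 5 higher and 3 lower in mouse than in rat myofibre-like cells. A threshold of 90% left no chimera mouse myofibre-like or satellite-like class, so their values could not be had, and in EC-like cells it gave 1 member higher and 9 lower in chimera rat than in SD rat cells and a muscle majority in 2 isoform groups of chimera rat cells. Keeping doublets left 1 member lower in chimera rat than in SD rat EC-like cells, and the mean of per-cell CPM gave 5 lower in satellite-like cells. Adding the other species' UMIs of the same gene gave 1 member higher in chimera rat than in SD rat cells in each of the 3 classes. It also gave 5 higher in mouse than in rat myofibre-like cells, 3 lower in satellite-like and 5 lower in EC-like cells, and muscle majorities in 6 and 5 groups of mouse satellite-like and EC-like cells. Subtracting fibre RNA, a setting added after the data were seen, gave 2 members higher and 1 lower in chimera rat than in SD rat satellite-like cells, 2 higher in EC-like cells, 7 lower in mouse than in rat EC-like cells, and muscle majorities in 3 (SD rat satellite-like), 2 (SD rat EC-like) and 2 (chimera rat satellite-like) groups. Depth limits the 29 mouse myofibre-like barcodes most, where 3 UMIs equal 32.6 CPM.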
